A study of Mus musculus with 6 samples.

Results

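The positions described here are the pyrimidines of the cytosolic tRNAs of the mouse brain, that is, every position whose reference base is C or T (U in the RNA) on a tRNA reference that is not mitochondrial. They were taken by reference base, name and presence in all 6 libraries, with no measured rate in the choice. There were 2636 such positions, 1326 C and 1310 T, of 6130 positions listed in all 6 libraries, and they lay on 134 references of 46 tRNA families (one amino acid and anticodon each). Gene copies with identical values were counted once, which left 2449 distinct positions, and 1668 of these (828 C and 840 T, from 36 families) had at least 100 reads in every library.

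RNA came from whole brain of wild-type (WT) mice and of mice lacking TRMT1L (TRMT1L KO), with 3 libraries per genotype that the series' design text gives as biological triplicates. The labels give no strain, age, allele or pooling, and the transcript of the targeted gene was not analysed here. TRMT1L is a paralogue of TRMT1, an enzyme that methylates guanosine in tRNA. The study compared the genotypes, and the pyrimidines are read here alongside the purines of the same tRNAs.

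A tRNA folds into a D arm, an anticodon arm, a variable loop and a T arm, and carries many modified bases. Modified pyrimidines include dihydrouridine in the D loop, 3-methylcytidine at position 32 of some tRNAs and in the long variable arm of some leucine and serine tRNAs, 5-methylcytidine beside the variable loop, and ribothymidine and pseudouridine in the T loop. A methyl group on the base-pairing face, as in 3-methylcytidine, can make reverse transcriptase insert a wrong base, skip a base or stop. Dihydrouridine, pseudouridine and 5-methylcytidine are mostly read as the unmodified base.

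At each position 3 percentages were taken from the listed counts: wrong base calls among all base calls, deletions among reads, and reads that start at the position among reads covering it. Pyrimidine positions held between 2668964 and 2788465 base calls in the wild-type libraries and between 3433022 and 3860362 in KO libraries, so every knockout library held more base calls. Median coverage of the pyrimidine positions listed in each library overlapped, at 195, 143 and 204 reads in WT and 165, 178 and 208 in KO. Coverage at listed positions ran from 30 to 8032 reads and stopped at a ceiling near the top of that range, and 155 distinct pyrimidine positions reached 7900 reads or more in at least 1 library. One library stood apart. Wild-type replicate 2 had 13 pyrimidine positions with at least 5% wrong base calls, against 3 and 3 in the other wild-type libraries and 7, 1 and 2 in knockout replicates 1, 2 and 3. At purine positions the corresponding counts were 46 in wild-type replicate 2 and between 37 and 52 in the other 5 libraries. The main differences in means and wrong-base shares are given with and without it. Values without a library apply the minimum of 100 reads to the remaining 5, which changes the set of positions.

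The sequences shown first hold the cytidines with the most wrong calls. All are from the listed reference bases, 5′ to 3′, with positions counted from 1 at the 5′ end of the reference. The leucine reference has base 51 in capitals, and the serine references have bases 50 and 58 in capitals.
Leu-CAG-2, bases 44 to 60: gtctcccCtggaggcgt
Ser-GCT-2, bases 43 to 62: ttgtgctCtgcacgcAtggg
Ser-GCT-5, bases 43 to 62: ttgtgctCtgcacgcAtggg
Ser-GCT-4, bases 43 to 62: ttgtgctCtgcacgcGtggg
Ser-GCT-1, bases 43 to 62: ttgtgctCtgcacgcGtggg
Ser-GCT-3, bases 43 to 62: ttgtgctTtgcacgcGtggg

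The highest rate of wrong calls at any pyrimidine was at cytidine 51 of the leucine tRNA Leu-CAG, in the long variable arm, where 3-methylcytidine is known to occur. The wrong-call percentages in wild-type replicates 1, 2 and 3 were 100%, 87.9% and 80.7%, on 34, 33 and 57 base calls. In the knockout they were 80%, 66.7% and 85.3%, on 75, 57 and 75 calls. Every library read this cytidine as another base in most reads, and the genotypes overlapped: 89.5% ± 9.75 (SD, n = 3) in WT and 77.3% ± 9.61 (SD, n = 3) in KO, with an exact two-sided permutation p of 0.2, where 3 against 3 libraries cannot give less than 0.1. Of 271 wrong calls, 202 were T, 44 A and 25 G. T made up 67.9% of the wrong calls in WT and 79.0% in KO. These counts are small because few reads cross the arm: coverage at base 51 was between 3.35% and 9.93% of that at base 46. The position therefore did not enter the means or the test across sites, both of which needed 100 reads. Leu-CAG-1 has the same bases and nearly the same counts (271 wrong calls of 332 against 271 of 331), so the pair is 1 observation. Bases 45 to 50 and 52 of the same arm, all C or T, had at most 0.0585% wrong calls.

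Cytidine 50 of the serine tRNA Ser-GCT, also in the long variable arm, was misread in 2 of 4 references. In Ser-GCT-5 the wrong-call percentages were 10.3%, 19.5% and 12.8% in WT and 14.5%, 8.42% and 12.2% in KO. In Ser-GCT-2 they were 8.17%, 13.8% and 6.36% in WT and 9.82%, 4.56% and 10.7% in KO. Both references were misread in all 6 libraries, and the genotypes overlapped. In Ser-GCT-4, with the same base 50, there were 0 wrong calls of 873 over the 6 libraries, which allows a share of up to 0.344%. Ser-GCT-1 likewise had 0 of 793, which allows up to 0.378%. Ser-GCT-3, which carries T there, had 0 of 1673. The wrong bases differed from those in leucine: in Ser-GCT-2, 68 of 156 were A and 88 were G, in Ser-GCT-5, 62 of 112 were A and 50 were G, and none was T in either. Ser-GCT-2 differs from Ser-GCT-4 at 1 of 85 listed bases, G58A, and from Ser-GCT-5 at 0 of 58, whereas Ser-GCT-3 differs from Ser-GCT-4 at 1 of 85, C50T. A Ser-GCT-4 read with T at base 50 would thus have the listed bases of Ser-GCT-3. How such reads were placed was not tested, so the 0 and the limits above hold for the listed calls only. The absence of T calls in Ser-GCT-2 and Ser-GCT-5 likewise holds for the listed calls. The 2 misread references are those with A at base 58. They share reads, with the same number of A calls in 4 of 6 libraries, and Ser-GCT-1 and Ser-GCT-4 share reads too, so this is close to 1 misread observation against 1 at 0.

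Neither serine position passed the test between genotypes. The quasi-binomial test with limma-moderated dispersion gave an adjusted p of 0.957 for Ser-GCT-5 (14.2% ± 4.74 in WT and 11.7% ± 3.06 in KO, SD, n = 3 each). For Ser-GCT-2 the same test gave 0.973 (9.45% ± 3.9 and 8.36% ± 3.33). Cytidine 50 was also skipped in these references: deletions were 2.11% ± 0.682 in WT and 2.09% ± 0.512 in KO for Ser-GCT-2, and 2.83% ± 3.03 and 3.11% ± 1.34 for Ser-GCT-5. Apart from these leucine and serine positions, none of the 138 distinct pyrimidines of the leucine and serine arms reached 0.5% wrong calls.

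**Figure D1:**
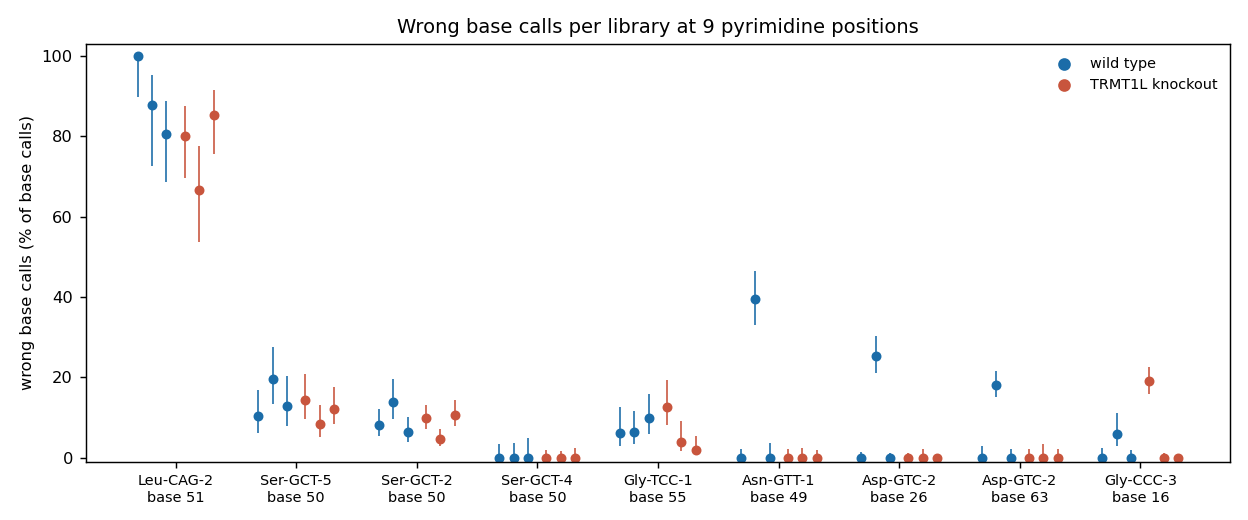
Wrong base calls (percent of base calls) per library at 9 pyrimidine positions, with wild-type libraries 1 to 3 and then knockout libraries 1 to 3 from left to right within each position. Bars are Wilson 95% intervals, which cover counting error only. The leucine, serine and Gly-TCC-1 positions that are misread are misread in all 6 libraries, Ser-GCT-4 is at 0 throughout, and the asparagine and aspartate positions are above 0 in wild-type replicate 2 alone.

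Position 32, at the 5′ side of the anticodon loop, was not a place of frequent misreading at the references listed in these libraries. The loops below, with the measured base in capitals, show position 32 in a serine tRNA, where 3-methylcytidine is known, and in a glutamate and a glutamine tRNA.
Ser-GCT-1, bases 27 to 43: atggaCtgctaatccat
Glu-CTC-1, bases 27 to 43: cggcgCtctcaccgccg
Gln-CTG-4, bases 27 to 43: ctggaCtctgaatccag
Cytidine 32 was listed as 62 distinct positions in 17 families, of which 31 had no wrong call at all and none reached 1%. Over all of them 107 of 587423 base calls were wrong, or 0.0182% (Wilson 95% interval 0.0151% to 0.0220%). Near-identical references carry the same reads, so calls are counted more than once here and the interval is too narrow. For example, Gln-CTG-2, Gln-CTG-3, Gln-CTG-4 and Gln-CTG-5 each list 4 wrong calls, all T, from knockout replicate 1. The highest was Ser-GCT-1 at 0.539%, and its 10 wrong calls, all G, came with the same 10 on Ser-GCT-4 from knockout replicate 2. The serine references Ser-GCT-2, Ser-GCT-3 and Ser-GCT-5 had 0 wrong calls at position 32, on 2600 base calls for the first. No threonine or arginine reference was among the 17 families, and Ser-GCT was the only serine family. It held 8958 of the 587423 base calls, so the rate over all of them is mostly that of other tRNAs. In the wild type the mean at the 48 cytidines with 100 reads was 0.0183%, 0.0295% and 0.00827%, and in KO 0.0363%, 0.140% and 0.00871%. The genotypes overlapped, with means of 0.0187% ± 0.0106 and 0.0617% ± 0.0693 (SD, n = 3 each; exact two-sided permutation p = 0.4). The difference was 0.0430 points, and 0.00382 points without knockout replicate 2. Uridine 32, at 16 distinct positions in 10 families, stood at 0.0888% of 82176 base calls, and its highest value with 100 reads in every library was 0.265% in Glu-TTC-2, where 19 wrong calls came from knockout replicate 1 and 3 from wild-type replicate 2.

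In the D loop, positions 14 to 21, the pyrimidines are mostly uridines and mostly sites of dihydrouridine. Of 22 cytidines and 135 uridines with 100 reads, 16 and 93 had no wrong call. Means over the 157 positions were 0.0275%, 0.256% and 0.0171% in WT and 0.265%, 0.0209% and 0.0118% in KO. The high values are those of wild-type replicate 2 and knockout replicate 1, so the genotypes overlapped (0.1% ± 0.135 and 0.0992% ± 0.144, SD, n = 3 each; exact permutation p = 1). The difference was -0.000923 points, and 0.0769 points without wild-type replicate 2. By family, 28 of 29 with a listed D-loop uridine stood under 1% over all base calls, the exception being Ala-AGC at 1.10%, and all 12 with a D-loop cytidine stood under 1%.

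Only 3 distinct D-loop positions passed 5%. Uridine 16 of Gly-CCC-3 was read as C in 93 of 490 calls in knockout replicate 1 (19%) and in 8 of 137 in wild-type replicate 2 (5.84%), and in 0 calls in the other 4 libraries. Gly-CCC-4 has the same 101 wrong calls, so this is 1 observation. Uridine 21 of Leu-TAG-3 (position 20b) was read as G in 31.8% of calls in wild-type replicate 2 and never in the other 5 libraries. Uridine 19 of Asp-GTC-2 (position 20) lay just outside the line at 4.83% over all libraries: 88 of 318 calls were C in wild-type replicate 2 and 0 elsewhere. The 2 aspartate references below, with bases 19 and 26 in capitals, differ at base 20 (G20T) and at base 56 (G56A).
Asp-GTC-2, bases 9 to 27: agtatagtggTtagtatCc
Asp-GTC-1, bases 9 to 27: agtatagtggTgagtatCc
In Asp-GTC-1 the same uridine had 1 wrong call of 5959.

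In the variable loop, positions 44 to 48 with the long arms, 62 cytidines and 60 uridines had 100 reads, and 36 and 48 of them had no wrong call. Means over these 122 positions were 0.176%, 0.635% and 0.180% in WT and 0.229%, 0.122% and 0.204% in KO. Wild-type replicate 2 was the highest and the groups overlapped (0.331% ± 0.264 and 0.185% ± 0.0560, SD, n = 3 each; exact permutation p = 0.6). The difference was -0.146 points, and 0.00956 points without wild-type replicate 2. By family, 27 of 29 with a variable-loop cytidine stood under 1%; Leu-CAG (1.24% of 43996 calls) and Ser-GCT (1% of 26891) were the others, through the arm cytidines above. Cytidine 48, the last base of the loop and a known site of 5-methylcytidine, had 29 wrong calls of 158943 over 30 distinct positions, or 0.0182%. All 26 families with a variable-loop uridine stood under 1%. The single uridine past 5% was base 49 of Asn-GTT-1 (position 48), read as C in 79 of 200 calls (39.5%) in wild-type replicate 2 and in none of the calls in the other 5 libraries.

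**Figure D2:**
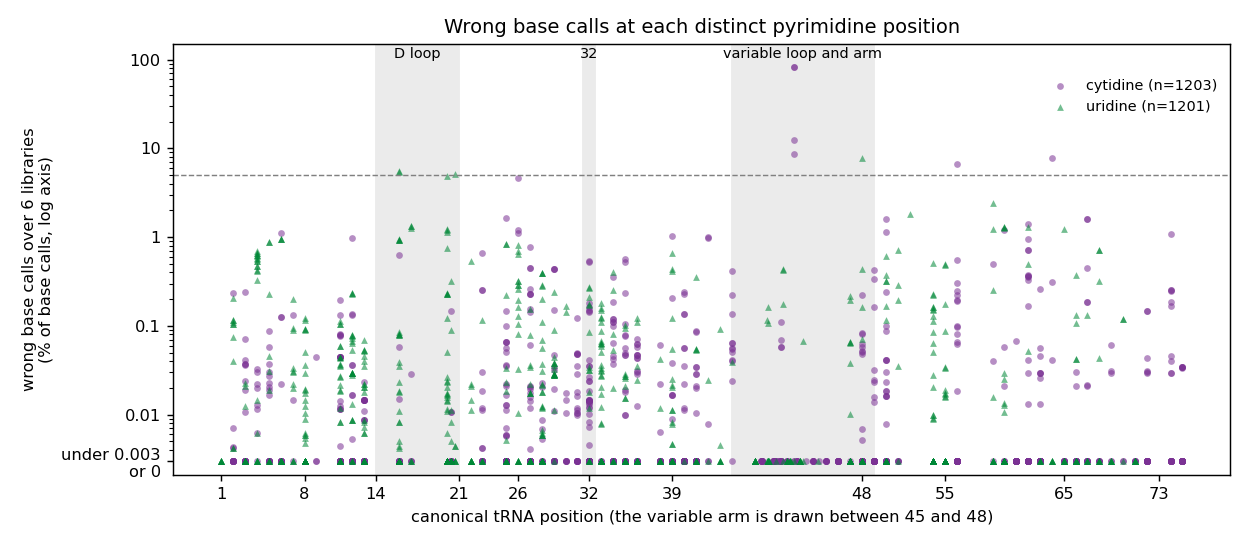
Wrong base calls over the 6 libraries together (percent of base calls, log axis) at each distinct pyrimidine position that was numbered or lay in a variable arm, against its canonical tRNA position, with cytidines as circles and uridines as triangles. Grey bands mark the D loop, position 32 and the variable loop with its arm, and the dashed line is 5%, with values at 0 or under 0.003% drawn at the bottom. Position 32 stays under 1%, and the points above 8% lie in the variable arm.

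Outside these places, cytidine 55 of Gly-TCC-1 (position 56, in the T loop) had both wrong calls and deletions in every library. The T loops below have this cytidine in capitals.
Gly-TCC-1, bases 48 to 60: ccgggttCgattc
Gln-CTG-5, bases 48 to 58: ccgagttCaaa
Gln-TTG-1, bases 48 to 58: ccgagttCaaa
Wrong calls were 6.06%, 6.34% and 9.79% in WT and 12.7%, 4% and 1.88% in KO, on 99 to 160 base calls per library. Of the 54 wrong calls, 29 were T, 15 G and 10 A. Deletions were 22.3%, 18.7% and 23.6% in WT and 19.4%, 19.8% and 18.6% in KO, over the 891 to 1280 reads that reached the base before it. The genotypes overlapped in both (deletions 21.5% ± 2.49 and 19.3% ± 0.636, SD, n = 3 each, limma-moderated adjusted p = 0.686; wrong calls adjusted p = 0.973). These reads differ from those at other positions in several ways. Coverage at base 55 was between 2.32% and 4.59% of that at base 53. The listed deletions of base 55, 167 to 281 per library, outnumbered the 152 to 223 reads listed as covering it in 5 of 6 libraries, so the deletion percentage is a share of the reads at base 54 and not of those at the cytidine itself. The median base quality there was 23 to 29, against a median of 38 to 40 over all pyrimidine positions with 100 reads. The next bases had events too: guanosine 56 had 34.4% deletions and adenosine 57, which is canonical position 58 and a known site of 1-methyladenosine, had 15.3% wrong calls.

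The other wrong calls of 1% or more outside the named places were few, and most belonged to 1 library. Cytidine 63 of Asp-GTC-2 was read as A or G in 18.1% of 574 calls in wild-type replicate 2 and never in the other 5 libraries. Cytidine 26 of the same reference was read wrongly in 25.4% of 346 calls in that library and never elsewhere. Cytidine 26 of Asp-GTC-1 differed from it: its 69 wrong calls were all T and came from 5 of 6 libraries, at 0.267%, 2.72% and 0.661% in WT and 2.66%, 1.14% and 0 in KO. Of the 10 highest uridines outside the named places, led by base 57 of Gly-GCC-2 at 2.42% over all libraries and base 51 of Trp-CCA-5 at 1.84%, wild-type replicate 2 had the highest percentage in all 10. Some of the 10 share reads, so they are fewer observations. In that library base 59 of Pro-CGG-1, Pro-AGG-1 and Pro-TGG-2 had 7 wrong calls of 66 on each. Base 6 of Ala-TGC-4 and Ala-AGC-3 had 4 wrong calls on each. The other cytidines among the 10 highest outside the named places, on Leu-TAG-3, Pro-AGG-1, Pro-TGG-2, Ser-CGA-1, Gly-GCC-2 and Asn-GTT-1, stood between 1.20% and 1.66% over all libraries, and each had wrong calls in 1 library only. Base 66 of Pro-AGG-1 and Pro-TGG-2 had 9 wrong calls of 69 on each, in wild-type replicate 2. Other numbered pyrimidines were also low: uridine 54 stood at 0.0449% over all base calls, uridine 55 at 0.0593%, cytidine 56 at 0.0724%, uridine 33 at 0.0262%, cytidine 34 at 0.0351% and uridine 8 at 0.00696%.

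Over all 1668 distinct positions with 100 reads, 15 (9 C and 6 T, in 8 families) had at least 1% wrong calls, 7 had at least 5% and none reached 20%. The 15 became 7 without wild-type replicate 2 and 23 without wild-type replicate 1, and lay between 11 and 20 without any 1 of the other 4 libraries. Of the 15, 3 had wrong calls in all 6 libraries, the 2 serine positions, which share reads, and Gly-TCC-1, and 6 had them in 1 library only. In 8 of the 15 the largest number of wrong calls came from wild-type replicate 2 and in 5 from knockout replicate 1. Of 98 purine positions at 1% or more, 70 had wrong calls in all 6 libraries and 4 in 1 library only.

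Pyrimidines were misread far less often than purines. Mean wrong calls per position were 0.0646%, 0.163% and 0.0614% in WT and 0.104%, 0.0541% and 0.0484% in KO at cytidines. At uridines they were 0.0388%, 0.185% and 0.0323% in WT and 0.104%, 0.0324% and 0.0291% in KO. Adenosines, which include the sites of inosine and 1-methyladenosine, lay between 1.69% and 2.05%, and guanosines between 0.261% and 0.458%. All pyrimidines together lay 0.789 points ± 0.0819 (SD, n = 6 libraries) below the purines, lower in 6 of 6 libraries (exact two-sided sign-flip permutation p = 0.031, the smallest that 6 libraries can give). The purine mean was between 5.07 and 21.2 times the pyrimidine mean, the lowest ratio being that of wild-type replicate 2. The gap in points was smaller at positions with at least 500 reads. Means over the 6 libraries there were 0.0292% at cytidines, 0.0364% at uridines, 0.697% at adenosines and 0.282% at guanosines. The typical position of either kind had no wrong call: 57.2% of pyrimidines and 51.4% of purines were at 0, while 0.899% of pyrimidines and 5.81% of purines reached 1%. In 30 of 36 families the purine mean was above the pyrimidine mean. Of the other families, Asn-GTT had a pyrimidine mean of 0.350% and a purine mean of 0.280%, with wild-type replicate 2 the source of its highest position.

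No single wrong base prevailed at pyrimidines in every library. Over all libraries at cytidines, 1013 of 2222 wrong calls were T (45.6%), 622 were G and 587 were A. At uridines, 1475 of 2938 were C (50.2%), 1035 were G and 428 were A, but 472 of the C calls came from wild-type replicate 2 and 473 from knockout replicate 1, and G was more frequent than C in the other 4 libraries. T was the most frequent wrong base at cytidines in 5 of 6 libraries, and A in wild-type replicate 2 (48.2%). The share of T among wrong calls at cytidines was 46.9% ± 13 in WT and 46.3% ± 6.05 in KO (SD, n = 3 each; exact permutation p = 0.9). The share of C at uridines was 48.2% ± 16.8 and 44.9% ± 5.81 (p = 1, exact permutation). The knockout minus wild-type differences were -0.634 points for T and -3.30 for C. Without wild-type replicate 2 the first grew to -8.09 points and the second turned to 5.99, while the first turned to 4.23 without wild-type replicate 1 and to 2.20 without wild-type replicate 3. The share of G at cytidines was 22.4%, 19.6% and 21.3% in WT and 36.7%, 33.1% and 29.7% in KO, so that these groups did not overlap (21.1% ± 1.41 and 33.2% ± 3.47, SD, n = 3 each; exact permutation p = 0.1, the smallest possible, and 0.6 after Benjamini-Hochberg adjustment over the 6 shares compared). With positions of at least 30 reads the groups overlapped, at 26.1%, 21.2% and 17.3% against 32%, 27.4% and 20.9%. Wild-type replicate 2 had the lowest share of T at cytidines (32.1%) and the highest share of C at uridines (67.5%). At adenosines, by contrast, 76.6% of wrong calls were T, and at guanosines 59.6% were T.

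**Figure D3:**
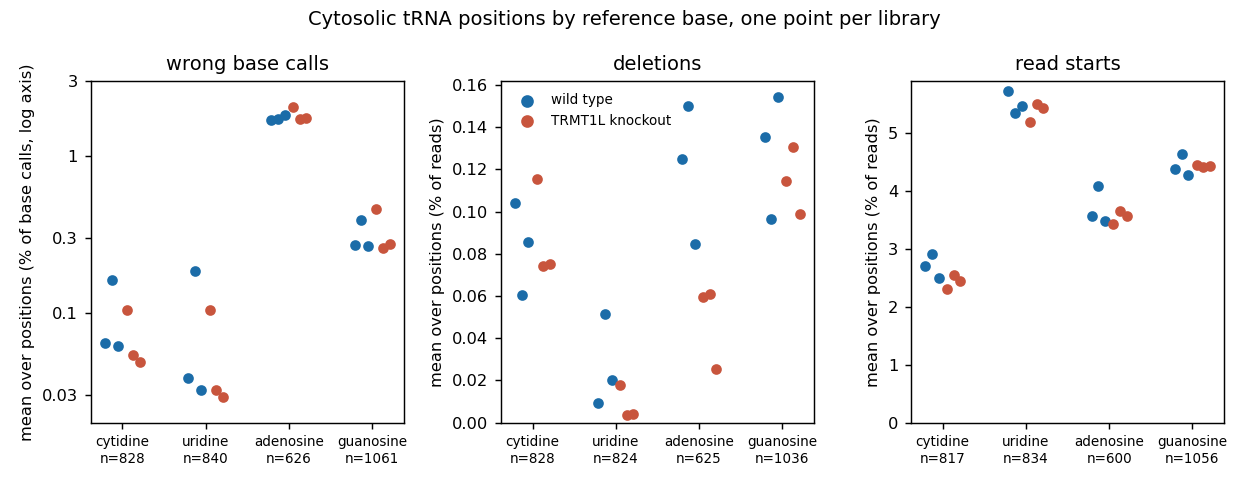
Mean percentage per position of wrong base calls (log axis), deletions and read starts for the 4 reference bases, one point per library, over distinct cytosolic positions with at least 100 reads in each library (n positions under each base). Wrong calls are lowest at cytidines and uridines in all 6 libraries, with wild-type replicate 2 and knockout replicate 1 highest there, while read starts are highest at uridines.

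For wrong calls, no pyrimidine position passed the test between genotypes. Of 137 positions of all bases tested (at least 100 reads in each library and at least 1% wrong calls over all), 15 were cytosolic pyrimidines, and 0 passed an adjusted p of 0.05 in limma-moderated quasi-binomial tests, while 2 had an unadjusted p under 0.05, as did 8.03% of all 137. The share called among all 137 was 0%, and the smallest adjusted p at a pyrimidine was 0.553. Limma on the arcsine square root also called 0, with 0 at an unadjusted p under 0.05. The groups did not overlap at 0 of 15 pyrimidines, against 3.65% of all positions tested. Mean wrong calls were 0.0963% ± 0.0576 in WT and 0.0688% ± 0.0306 in KO at cytidines (exact permutation p = 0.5), and 0.0854% ± 0.0864 and 0.0553% ± 0.0424 at uridines (exact permutation p = 0.6; SD, n = 3 each). The knockout was lower by 0.0274 points at cytidines and by 0.0301 at uridines, and without wild-type replicate 2 it was higher, by 0.00602 and 0.0186 points.

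Deletions gathered on a few cytidines. Of 1652 pyrimidine positions with 100 reads, 90.1% had none, and 16 (14 C and 2 T) had at least 1%. After Gly-TCC-1 came cytidine 26 of the leucine references Leu-TAG-2 and Leu-AAG-2 (position 25, at the end of the D arm), next to guanosine 26, a known site of methylation by TRMT1. The D arms are shown with this cytidine in capitals.
Leu-TAG-2, bases 9 to 26: ggccgagcggtctaaggC
Leu-AAG-2, bases 9 to 30: ggccgagcggtctaaggCgctg
Leu-AAG-1, bases 9 to 30: ggccgagcggtctaaggCgctg
In Leu-TAG-2 deletions were 6.07%, 2.65% and 8.12% in WT and 21.2%, 4.24% and 5.41% in KO. In Leu-AAG-2 they were 6.60%, 2.02% and 13.3% in WT and 13.1%, 3.41% and 3.97% in KO. In Leu-AAG-1, which differs from Leu-AAG-2 at 1 of 52 listed bases (C6T), they were 4.74%, 1.32% and 4.06% in WT and 3.96%, 1.97% and 2.58% in KO. Leu-TAG-1 has the same bases 9 to 26 as Leu-TAG-2, but its deletions were 1.57% over all libraries, from 0.429% to 2.16%. The genotypes overlapped in each of these references.

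Cytidine 55 of 6 glutamine references (position 56) was skipped at lower rates. In Gln-CTG-5 deletions were 3.9%, 1.30% and 0.847% in WT and 3.30%, 1.36% and 1.47% in KO. Gln-CTG-2, Gln-CTG-3 and Gln-CTG-4 had nearly the same values, and Gln-TTG-1 ranged from 0 to 4.47%. Replicate 1 of both genotypes was the highest of its group in these glutamine references. The 2 uridines each rested on 1 library: base 50 of Val-TAC-1 at 9.90% in wild-type replicate 2 and base 65 of Glu-TTC-2 at 7.73% in knockout replicate 1, with 0 in the other 5.

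No pyrimidine position passed the test for deletions. Of 61 positions of all bases tested, 16 were cytosolic pyrimidines, and 0 passed an adjusted p of 0.05 in the limma-moderated test, with 0 at an unadjusted p under 0.05 against 8.20% of all 61. The share called among all 61 was 0%, the smallest adjusted p at a pyrimidine was 0.575, and limma on the arcsine square root called 0, with 1 at an unadjusted p under 0.05. The groups did not overlap at 1 of 16, cytidine 35 of Ser-GCT-3 in its anticodon (0.833%, 0 and 0 in WT, 1.77%, 1.44% and 2.38% in KO), against 8.20% of all 61. Mean deletions were 0.0835% ± 0.0217 and 0.0883% ± 0.0235 at cytidines and 0.0270% ± 0.0218 and 0.00839% ± 0.00801 at uridines, wild type and knockout in turn (SD, n = 3 each; exact permutation p = 0.7 and 0.2). The differences were 0.00480 points at cytidines and -0.0186 at uridines, and -0.00530 and -0.00789 without wild-type replicate 2. Pyrimidines lay 0.0558 points ± 0.0211 (SD, n = 6) below purines, lower in 6 of 6 libraries (exact sign-flip permutation p = 0.031). That direction turned at positions with at least 500 reads, where pyrimidines were 0.0404 points higher, and where deletions were left at the base they are listed at, with pyrimidines 0.0581 points higher.

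**Figure D4:**
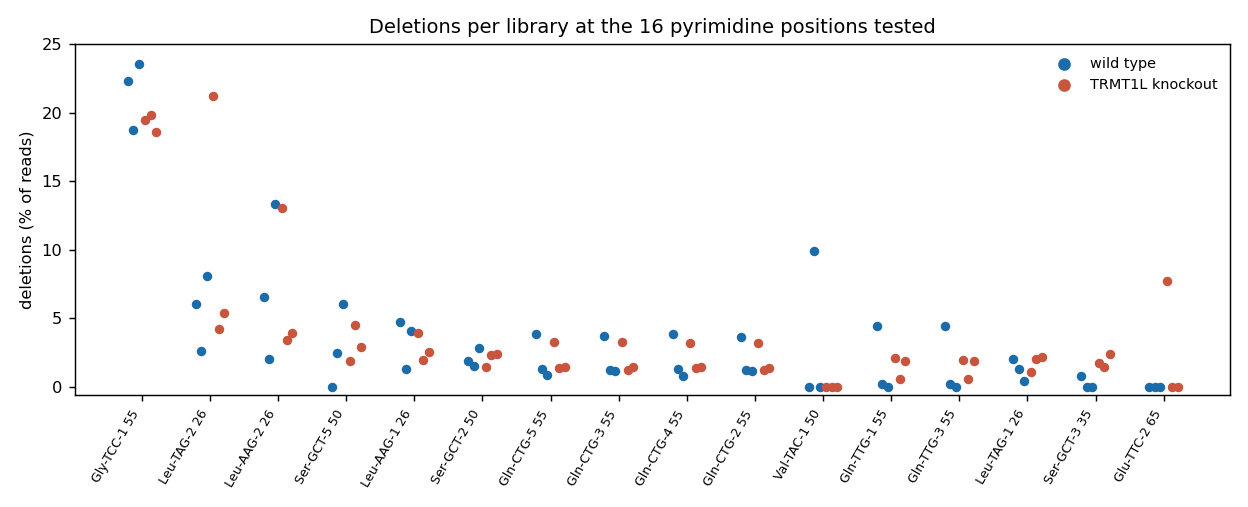
Deletions (percent of reads) per library at the 16 pyrimidine positions that had at least 1% over all libraries, named by reference and base number, wild type in blue and knockout in red. Gly-TCC-1 base 55 lies between 18.6% and 23.6% in all 6 libraries, and the genotypes overlap at every position but Ser-GCT-3 base 35.

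Read starts were common at pyrimidines. Libraries were made from RNA of 30 to 150 bp, so a start can be the end of a tRNA fragment or of a cDNA, and these cannot be told apart here. Means per position were 2.70% ± 0.206 at cytidines and 5.51% ± 0.193 at uridines in WT, and 2.44% ± 0.120 and 5.37% ± 0.166 in KO (SD, n = 3 each; exact permutation p = 0.2 and 0.5). The differences were -0.259 and -0.141 points, and -0.148 and -0.214 without wild-type replicate 2. Pyrimidines lay 0.119 points ± 0.178 (SD, n = 6) below purines, lower in 4 of 6 libraries (exact sign-flip permutation p = 0.1875), and 0.395 points below them without wild-type replicate 2, where 1698 positions had 100 reads. On the 1651 positions of all 6 libraries the gap without that library was 0.0817 points. Without wild-type replicate 1 it was 0.331 points, and 0.172 on the same 1651 positions. Without the first 3 bases of each reference, where a full-length read starts, pyrimidines were 1.37 points higher. All 7 pyrimidines at base 1 with 100 reads, uridines of aspartate and glutamate tRNAs, were at 100%.

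Uridine 55 of the T loop, the site of pseudouridine, had the highest mean of any numbered uridine with at least 10 distinct positions (31.8% over 39 positions), and the references fell far apart. In 13 references of 5 families, Val-AAC, Val-CAC, Leu-CAA, Leu-CAG and Ser-GCT, at least 80% of the reads covering this base started at it. These 13 hold 3 sets of start counts, each the same in every library: one for the valine references, one for the leucine references and one for the serine references, so they are 3 observations. In 22 references of 11 families, with 14 sets of start counts, fewer than 2% did. Val-AAC-2 had 97.6%, 91.0% and 100% in WT and 94.7%, 100% and 99.1% in KO. Ser-GCT-4 had 89.9%, 93.0% and 94.5% in WT and 85.9%, 87.9% and 87.5% in KO. Gln-CTG-3, at 0.407% over all libraries, and Lys-TTT-2, at 0, were at the other end. At uridine 39 in the anticodon stem, another known site of pseudouridine, Lys-TTT-2 had 84.0%, 88.2% and 87.4% in WT and 88.2%, 84.0% and 86.0% in KO, and Met-CAT-1 had 72.4% ± 3.58 and 66.9% ± 10.1 (SD, n = 3 each). The other 10 of 14 references with uridine 39 were under 2%. A read that starts at a base includes that base, and whether these starts bear on pseudouridine was not tested.

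Among cytidines, base 31 of Leu-CAG-4 (99.7% over all libraries) and base 12 of Arg-CCT-1 (99.3%) were the strongest starts. With base 1 left out, the 10 highest positions for read starts held these 2 cytidines and 8 uridines between 93.6% and 97.9%. They hold 5 sets of start counts, since 6 of the uridines, on 5 valine references and Gly-ACC-1, have the same starts in every library. Leu-CAG-1 and Leu-CAG-2 have the same starts at base 31 as Leu-CAG-4. In the leucine variable arm, cytidine 48 of Leu-CAA-2 was the start of 56.8%, 70.3% and 66.8% of the reads in WT and 52.8%, 62.5% and 60.8% in KO, and Leu-CAA-3 showed the same (64.4% over all libraries). Base 31 of Leu-CAG-2 had 89.7%, 91.5% and 84.3% in WT and 48.1%, 95.2% and 81.7% in KO, where knockout replicate 1 alone was low. In that library Leu-CAG-4 had the same 241 starts on 241 covering reads, against 501 covering reads on Leu-CAG-2. Cytidine 38 of Asp-GTC-2 had the largest difference between group means of any tested pyrimidine, 15.9% against 1.08%, through wild-type replicate 2 at 44% against 2.17% and 1.43% in the other wild-type libraries (adjusted p = 0.692, limma-moderated test).

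Of 985 positions of all bases tested for read starts, 3 were called (0.305%), and of the 474 cytosolic pyrimidines 1 was called, cytidine 31 of Gly-TCC-1. Of the 474, 24 had an unadjusted p under 0.05, that one included, against 6.40% of all 985. At cytidine 31 read starts were 2.21%, 4.34% and 2.87% in WT and 0.0125% in each knockout library (limma-moderated adjusted p = 0.00222, lower in 3 of 3). With limma on the arcsine square root 0 pyrimidines were called (lowest adjusted p 0.108), while 16 stood under 0.05 before adjustment. Without wild-type replicate 2 the position was not tested, since its starts over the remaining libraries were 0.963% and thus below the 1% minimum. Its place in the anticodon arm is shown in capitals.
Gly-TCC-1, bases 26 to 42: agctgCcttccaagcag
The knockout values sit at the depth ceiling. From base 9 to base 38 of this reference, all 90 knockout values (30 bases in 3 libraries) were exactly 1 read start, at coverages of 7929 to 8032, while the wild-type libraries had between 2 and 235 starts at coverages of 4696 to 7520. Read starts in KO could therefore not be read from these counts over these bases. With a rate minimum of 0.5%, uridine 8 of the same reference was also called, and its own coverage was below the ceiling. It had 75, 48 and 68 starts in WT, at coverages of 5035, 3679 and 4661, and 0, 1 and 1 in KO, at coverages of 6166, 5832 and 6743. At base 7 the starts were 54, 36 and 48 in WT and 1, 61 and 0 in KO, at knockout coverages of 6168, 5815 and 6738. At base 5, at coverages of 5533 to 6515, the knockout libraries had 47 to 65 starts and the wild type 29 to 63. Whether the ceiling bears on uridine 8 was not tested. The groups did not overlap at 21 of 226 cytidines (9.29%) and 21 of 248 uridines (8.47%), against 12.8% of all 985 positions.

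**Figure D5:**
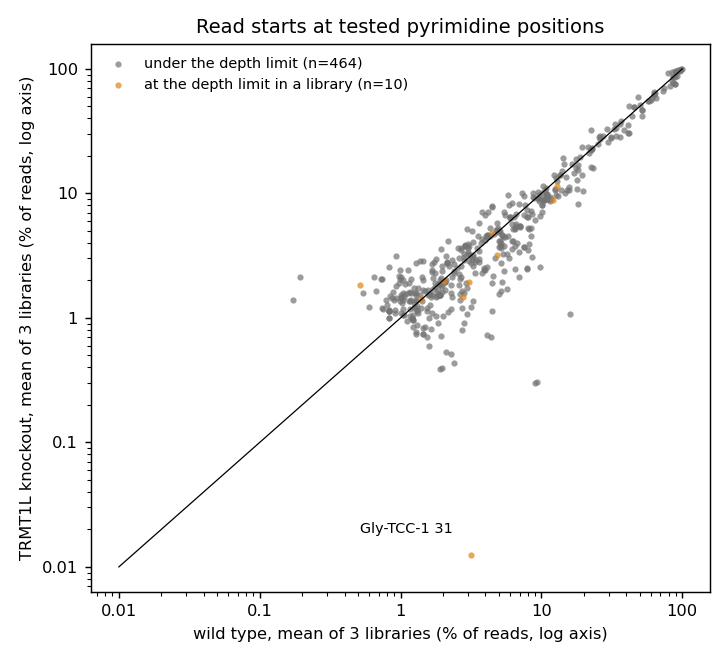
Read starts (percent of the reads covering a position) in WT against the knockout, means of 3 libraries on log axes, for the 474 pyrimidine positions tested. Positions that reached the depth ceiling in a library are orange and the line marks equal values. The named point is base 31 of Gly-TCC-1, the only call, at 3.14% and 0.0125%.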

How the data were processed

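The deposited files, one per library, list for each tRNA position raw counts of coverage, A, T, C and G calls, insertions, deletions and stops, and mean and median base quality scores, per the file headers. GATK 3.5 is named in the submitters' processing notes; the aligner, reference set and genome build are not given in the sources used here, and the references carry no genome coordinates. No position under 30 reads is listed. Reads of near-identical copies appear on each copy.

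From these counts, a stop was assigned to the base before the one it is listed at, since it counts reads starting there, and a deletion to the bases it removes, since it is listed one base earlier; the design fixed for this work had left it in place. Canonical numbers came from the anticodon, D loop, T loop or CCA end, or from a similar reference. Sites with at least 100 reads per library and 1% events were tested with a quasi-binomial model on genotype, dispersion moderated by limma (3.58.1, R 4.3.3) and floored at 1, two-sided, Benjamini-Hochberg over all bases and references. Means were compared by exact permutation (Python 3.11.15, scipy 1.17.1). Wilson intervals are at 95%, the limit for 0 is 3 counts, and both cover counting error only. P-values measure the spread between these libraries.

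Positions named were cytidines and uridines at position 32, in the D loop or the variable loop with at least 5% wrong calls (at most 12 each), the 10 highest elsewhere, the 10 highest for deletions and starts, and every call; others were chosen after their values were seen. The members and lists were chosen with earlier results of these data known. On simulated counts with no change, 0 sites were called in each readout. With odds multiplied by 4, 94.1% of 34 changed wrong-call sites, 86.7% of 15 deletion sites and 82% of 200 start sites were recovered. Libraries of a group differed beyond sampling noise (chi-square per degree of freedom 21.0 to 55.9 over 130 references). Alternatives changed the coverage and rate minimum, test, copies, ceiling, replicate block and libraries; 2 treatments of deletions and the median over families were added after seeing the data.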

Additional observations from a re-analysis of the deposited data

Results flagged for a closer look

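None of the comparisons used insertions. Insertions reached the test's minimum at 7 pyrimidine positions, and 1 of them had more insertions in every knockout library than in any wild-type library. At uridine 54 of Val-TAC-1, in the T loop, the knockout mean was 16.4%, from 29.1%, 3.98% and 15.9% of 127, 176 and 207 reads, and the wild type had 0 of 137, 160 and 108. The limma-moderated quasi-binomial test gave an adjusted p of 0.169, so the difference did not pass, although all 3 knockout libraries were higher. None of the 7 positions was called, 1 had an unadjusted p under 0.05 and the groups did not overlap at 1. Among all 34 positions tested for insertions 0 were called, 8.82% had an unadjusted p under 0.05 and 5.88% did not overlap. Elsewhere, single libraries stood out: cytidine 5 of Asp-GTC-2 had 19.4% in wild-type replicate 2 and 0 elsewhere, and uridine 7 of Ala-AGC-5 had 13.9% in knockout replicate 1 and at most 0.926% elsewhere.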

How the results depend on the processing

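Differences between genotypes are given as knockout minus wild type in percentage points and, with 3 libraries against 3, cannot pass 0.05. With a minimum of 500 reads the difference in wrong calls turned to 0.00212 at cytidines, 0.00301 at uridines, -0.0138 at cytidine 32 and 0.00270 in the D loop, and in cytidine deletions to -0.00715. With the median over families (added after seeing the data) wrong calls turned to 0.000194 and 0.00337. With reads pooled over positions cytidine 32 turned to -0.00161, the D loop to 0.00458 and cytidine deletions to -0.00263. With a minimum of 30 reads cytidine deletions turned to -0.00216 and the share of T at cytidines to 4.21. With deletions left where they are listed (also added later) the differences were -0.0390 at cytidines and 0.00811 at uridines. Leaving out 1 library at a time gave -0.0476 to 0.00602 for wrong calls at cytidines, -0.0552 to 0.0186 at uridines, -0.0837 to 0.0769 in the D loop, -0.223 to 0.00956 in the variable loop, -0.00879 to 0.0150 for cytidine deletions, -0.0271 to -0.00789 for uridine deletions, -0.355 to -0.148 and -0.214 to -0.0464 for read starts at cytidines and uridines, -8.09 to 4.23 for the share of T and -9.09 to 5.99 for the share of C (-8.09 and 5.99 being without wild-type replicate 2). The gap below purines ranged from -0.806 to -0.758 for wrong calls and from -0.0614 to -0.0504 for deletions without 1 library, with p = 0.062 by exact permutation, the smallest that 5 libraries give, and from -0.395 to -0.0835 for read starts, or from -0.172 to -0.0811 where the positions of all 6 libraries were kept (added after seeing the data). The gap in wrong calls narrowed at minimums of 500 and 2000 reads. At 2000 reads the means were 0.0109% at cytidines, 0.0191% at uridines, 0.393% at adenosines and 0.330% at guanosines. The deletion gap was 0.0404 at 500 reads, -0.0116 pooled and 0.0581 as listed. The gap in read starts was -0.238 at 30 reads, -2.17 at 500, -0.568 with every reference counted and -2.23 pooled, all past the threshold, and turned to 0.178 without positions at the ceiling and 1.37 without the first 3 bases. The 1 read-start call became 4 at a rate of 0.5%, and 0 at a rate of 5%, with limma on the arcsine square root, and without the ceiling; without 1 library it ranged from 0 to 1, the 0 being without wild-type replicate 2. At 5%, without the ceiling and without that library the position left the test, so these losses follow from the setting; for the other changes the cause was not tested. Same-numbered libraries gave deviations correlated at 0.400, 0.264 and -0.429 for wrong calls, 0.123, 0.415 and -0.433 for deletions and 0.125, 0.00859 and 0.0668 for read starts, so pairing by number was not shown and the libraries were not treated as pairs; with the replicate block 0 positions were called for wrong calls, 0 for deletions and 1 for read starts, and the block left the differences in means as they were. Near 100 reads a percentage rests on few events, which limits the low rates.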
